A study of Mus musculus with 6 samples.

Results

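Histone lysine methyltransferases and demethylases are the enzymes that add and remove methyl groups on lysines of histone tails. Here 48 of their genes were described as a set, 28 methyltransferases and 20 demethylases. They were chosen by name, with earlier results of these data known. The authors' deposited table has 22432 genes, and all 48 were among those with an adjusted p-value. For 46 of them the mean normalised count was 100 or more. RNA had been sequenced from cultured male mouse germline stem cells, the cells that sustain sperm production, in 3 CDH1+/THY1+ and 3 CDH1-/THY1+ samples. CDH1 is the adhesion protein E-cadherin and THY1 a surface glycoprotein used to enrich germline stem cells, so both populations carry THY1 and only the CDH1+/THY1+ cells CDH1. Both populations came from the same 3 culture names: RP7 (age 8 weeks), RP5 (19 days) and WT1 (5 weeks), at passage 6 to 8. For RP7 and RP5 the strain is given as OCT4/GFP; Dox-OCT4, and for WT1 as C57BL/6. DR4 fibroblasts served as feeders for all cultures. Nothing used here says whether a culture came from 1 animal or from several.

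Methylation of a histone lysine acts through its position. Methylation of H3K4 marks promoters and enhancers of active genes, H3K36 the bodies of transcribed genes, and H3K79 transcribed chromatin, while H3K9 and H3K27 methylation mark silent chromatin and H4K20 methylation is tied to mitosis, replication and heterochromatin. In the male germ line, H3K9 enzymes are known for silencing retrotransposons and for heterochromatin at meiosis. In the text a value written with ± is a difference on the log2 scale, positive where CDH1+/THY1+ cells had more, with the standard error of the authors' test, and a gene was called higher or lower at an adjusted p-value under 0.05 by DESeq2 over all genes. The table holds no value per library, so levels in each sample, the spread within a population and any overlap of the populations cannot be given. The depth per sample is unknown for the same reason, and the mean normalised counts are averages over all 6 libraries.

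More of the enzymes were lower than higher in CDH1+/THY1+ cells. Of the 48 enzymes, 24 were called by the authors' deposited table, 18 lower and 6 higher, which is 50% of the set. Among all 19211 genes with an adjusted p-value 33.5% were called, 17.1% higher and 16.4% lower. Among the 11133 of these with a mean count of at least 100, a range nearer to that of the enzymes, 44.3% were called, 22.6% higher and 21.7% lower. The share of enzymes called was thus close to that of genes with like counts, while 37.5% of the enzymes were lower and 12.5% higher. Their median log2 fold change was -0.31, against 0.01 over all genes. No test of the set was made. Of the 28 methyltransferases 2 were higher and 11 lower, with a median of -0.27, and of the 20 demethylases 4 were higher and 7 lower, with a median of -0.37. The other 24 enzymes were not called, 10 with a value above 0 and 14 below. At an adjusted p under 0.01, which called 23.0% of all genes, 22 enzymes remained, 17 lower and 5 higher. A change of at least 1.5-fold on top of the call, met by 25.9% of all genes, was met by 20 enzymes, 14 lower and 6 higher, and 4 of the called enzymes differed by at least 2-fold. The stricter Benjamini-Yekutieli adjustment, which allows for any dependence between tests, called 16.3% of all genes and 19 enzymes, 15 lower and 4 higher.

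**Figure D1:**
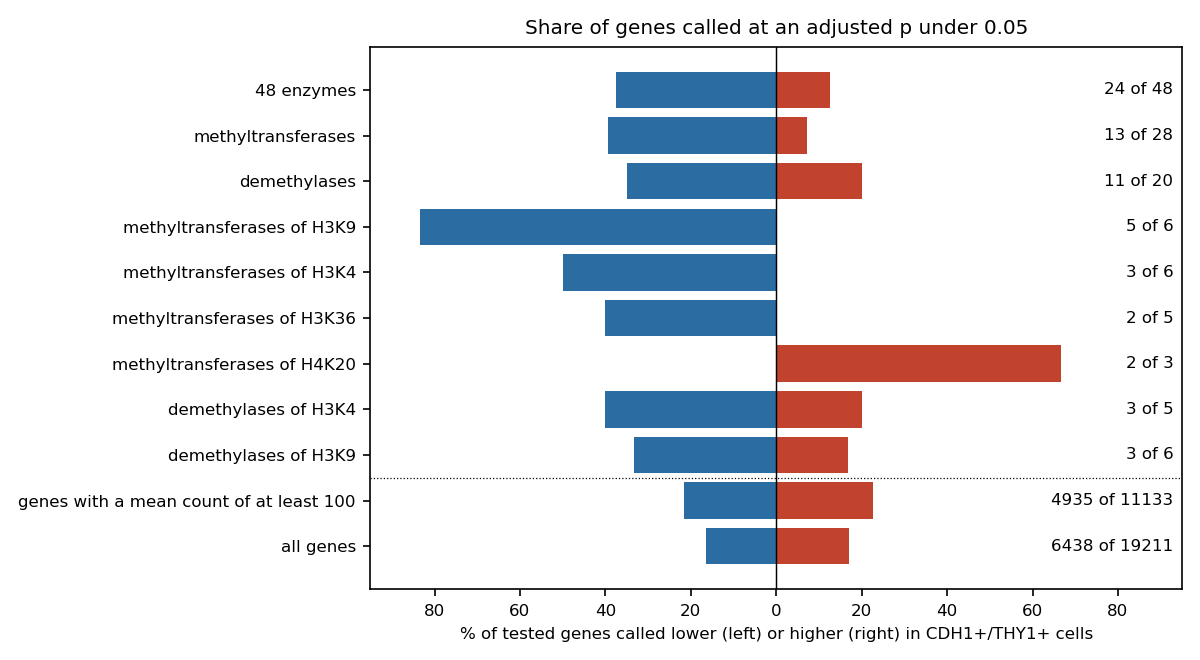
Share of tested genes called lower (bars to the left) or higher (bars to the right) in CDH1+/THY1+ cells, in percent, at an adjusted p under 0.05. At the right stand the genes called and tested. Bars of the 48 enzymes reach 37.5% on the lower and 12.5% on the higher side, against 16.4% and 17.1% for all genes, and the H3K9 methyltransferases have a bar on the lower side only.

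Marker genes of several cell types were looked up in the same comparison. In it 33.5% of all genes were called, and 44.3% of those with a mean count of at least 100. Fibroblast, Sertoli cell and leukocyte markers had 34.6%, 33.3% and 42.9% called in either direction, near these shares, and germ cell markers 89.7%. Of 29 germ cell marker genes, with mean counts of 21.3 to 14797, 26 were lower and 0 higher, with a median of -1.44, and of 26 fibroblast markers 9 were higher and 0 lower, with a median of 0.77. All 7 pluripotency markers with a row were higher (median 1.91, out of 17 listed). The other listed ones, Nanog and Esrrb among them, were not analysed here, so nothing can be said of them. Of the 7 with a row, 6 had a standard error at or above the 90th percentile of the 200 genes nearest in mean count. So had 16 of the 26 fibroblast markers and 8 of the 29 germ cell markers. Sertoli cell markers had 2 higher and 1 lower of 9 tested, and leukocyte markers 3 higher and 0 lower of 7. Mean counts of the leukocyte markers were low, from 4.65 to 134 with a median of 18.4, and the called Ptprc had 13.9. Those of the Sertoli cell markers ran from 2.27 to 1582, with a median of 63.4. The called genes of these lists ran from Tdrd1 at -2.22 ± 0.20 to Lhx1 at -0.74 ± 0.29 for germ cells, and from Fbn1 at 0.48 ± 0.19 to Ccn1 at 1.21 ± 0.16 for fibroblasts, per the authors' deposited table. They ran from Klf4 at 0.60 ± 0.23 to Sox2 at 2.08 ± 0.64 for pluripotency, from Sox8 at -1.12 ± 0.36 to Kitl at 1.09 ± 0.39 for Sertoli cells and from Mrc1 at 1.21 ± 0.44 to Cd68 at 1.65 ± 0.33 for leukocytes, according to the authors' deposited table. In bulk samples fewer cells of a type and less RNA per cell cannot be told apart, and the part of these marker shifts in the enzyme results was not tested. The direction of every value rests on the name of the table, and Cdh1 itself was not analysed here.

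Sequences before start sites of the 5 H3K9 methyltransferases that were lower, the methyltransferase target group with the largest share of calls, are shown with that of Kmt5a, an H4K20 methyltransferase that was higher. Each run lies before a RefSeq start site, is written 5′ to 3′ on the gene's strand, comes from RefSeq on GRCm38.p6, and was shortened where an exon of a protein-coding gene lay in it. The run of Ehmt2 lies inside the annotated gene, before a later start site and in the first intron of the transcripts that start further upstream, and the other 5 lie outside the gene bodies of their genes. Capitals mark matches on either strand to any of 4 motifs, and no base fell in 2 of them. The E-box was searched as CACGTG and the CCAAT box by the letters of its name. The GC box was searched as GGGCGG, and the binding site of ETS factors was searched with the letters CCGGAAG.
Suv39h1, chrX:8074761-8075010, minus strand: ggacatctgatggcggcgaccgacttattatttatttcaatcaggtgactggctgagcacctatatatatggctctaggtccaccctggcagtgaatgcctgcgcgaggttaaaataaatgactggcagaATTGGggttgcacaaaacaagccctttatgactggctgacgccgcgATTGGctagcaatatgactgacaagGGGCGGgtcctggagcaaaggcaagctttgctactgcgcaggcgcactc
Suv39h2, chr2:3475032-3475236, minus strand: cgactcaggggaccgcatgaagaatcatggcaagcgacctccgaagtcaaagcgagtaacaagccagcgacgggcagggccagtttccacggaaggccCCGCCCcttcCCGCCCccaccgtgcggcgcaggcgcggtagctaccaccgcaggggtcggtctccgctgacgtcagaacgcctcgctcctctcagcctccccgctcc
Ehmt2, chr17:34898720-34898953, plus strand: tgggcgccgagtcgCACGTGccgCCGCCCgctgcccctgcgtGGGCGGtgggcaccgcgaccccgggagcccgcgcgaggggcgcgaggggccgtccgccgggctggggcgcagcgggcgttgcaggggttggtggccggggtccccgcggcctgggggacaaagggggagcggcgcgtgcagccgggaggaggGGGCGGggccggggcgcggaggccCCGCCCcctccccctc
Setdb1, chr3:95357203-95357452, minus strand: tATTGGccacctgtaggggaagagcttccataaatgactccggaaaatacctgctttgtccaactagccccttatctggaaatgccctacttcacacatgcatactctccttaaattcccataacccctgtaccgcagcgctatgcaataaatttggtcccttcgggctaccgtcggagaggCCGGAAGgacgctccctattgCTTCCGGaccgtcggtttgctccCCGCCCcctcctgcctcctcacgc
Setdb2, chr14:59440885-59440971, minus strand: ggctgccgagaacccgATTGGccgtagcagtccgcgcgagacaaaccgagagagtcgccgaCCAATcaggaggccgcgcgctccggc
Kmt5a, chr5:124439680-124439929, plus strand: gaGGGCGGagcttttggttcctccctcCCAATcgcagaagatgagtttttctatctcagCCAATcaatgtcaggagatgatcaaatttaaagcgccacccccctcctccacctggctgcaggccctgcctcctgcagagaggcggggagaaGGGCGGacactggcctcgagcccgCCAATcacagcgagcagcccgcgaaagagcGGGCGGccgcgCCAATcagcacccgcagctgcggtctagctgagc

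RefSeq promoters were found for 35 of the 48 enzymes, with 48 start sites. In the 250 bases before the start, a GC box was present in 70.8% of these 48, against 32.7% of all 32851 promoters, and the median GC content was 66.4% and 52.4%. A CCAAT box was present in 39.6% of the enzymes' promoters, against 33.8% of all, an E-box in 8.33%, against 6.02%, and an ETS site in 10.4%, against 6.91%. GC boxes were found in 81% of the 21 promoters of enzymes that were lower and in 55.6% of the 9 of enzymes that were higher, a description over few promoters, some of them of the same gene. Of the runs shown, Ehmt2 held 4 GC boxes and the only E-box, Kmt5a 4 CCAAT boxes and 3 GC boxes, and Setdb1 both ETS sites. Which start site these cells use is unknown, and Suv39h1 and Ehmt2 have 2 RefSeq starts and Kmt5a has 3.

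Of 6 methyltransferases of H3K9 5 were called, all of them lower, where 16.4% of all genes and 21.7% of those with a mean count of at least 100 were lower. The group itself was not tested. The median was -0.84, the lowest among the target groups of the methyltransferases. Suv39h1, which trimethylates H3K9 in pericentric heterochromatin (chromosome X, 8061171 to 8074760), stood at -0.88 ± 0.18 (adjusted p = 6.19e-06) per the authors' deposited table, a 1.84-fold lower level at a mean count of 1388. Its paralog Suv39h2, known in mouse for its expression in testis (chromosome 2, 3455815 to 3475031), had -0.84 ± 0.16 (adjusted p = 1.20e-06) per the authors' deposited table. The values of this pair differ by far less than their standard errors.

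Ehmt2, also known as G9a, makes mono- and dimethylated H3K9 in euchromatin (chromosome 17, 34898469 to 34914052). It had -0.84 ± 0.16 (adjusted p = 2.01e-06) according to the authors' deposited table, and with 1130 counts per kb of exon it had the highest level per length of all 48 enzymes. Its partner in the same complex, Ehmt1 or GLP, was at -0.28 ± 0.14 and was not called (adjusted p = 0.0957) per the authors' deposited table, with a 95% interval of -0.55 to -0.01. Setdb2 (chromosome 14, 59402009 to 59440884) was the lowest of these 6, at -0.97 ± 0.16 (adjusted p = 1.17e-08), per the authors' deposited table. Setdb1, the enzyme that silences endogenous retroviruses with the TRIM28 corepressor (chromosome 3, 95323525 to 95357202), fell by 0.56 ± 0.17 on the log2 scale (adjusted p = 0.00416) according to the authors' deposited table. That call was lost by a narrow margin under a Benjamini-Yekutieli adjustment (adjusted p = 0.0569), and also with a minimum change of 1.5-fold.

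H3K4 methyltransferases had 3 lower and 0 higher of 6, with a median of -0.39. The share called, 50%, was near the 44.3% over genes with 100 or more mean counts, of which 21.7% were lower. This group was not tested either. Kmt2c, which with Kmt2d monomethylates H3K4 at enhancers, stood at -0.92 ± 0.13 (adjusted p = 4.28e-11) per the authors' deposited table. Kmt2d itself had -0.16 ± 0.17 and was not called (adjusted p = 0.48) per the authors' deposited table. Setd1a, the catalytic subunit of a SET1 complex that trimethylates H3K4 at promoters, had -0.78 ± 0.18 (adjusted p = 0.000148) according to the authors' deposited table, but a gene model on the same strand, Gm49388, covers 51.8% of its exon bases. Setd1b, with a mean count of 60, was at 0.23 ± 0.29 (adjusted p = 0.601), per the authors' deposited table. Kmt2a, also known as MLL1, fell by 0.52 ± 0.16 on the log2 scale (adjusted p = 0.0041) per the authors' deposited table, a call that the Benjamini-Yekutieli adjustment ended (adjusted p = 0.0561). Its paralog Kmt2b was at -0.25 ± 0.21 (adjusted p = 0.383), according to the authors' deposited table.

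Of 5 H3K36 methyltransferases 2 were lower and 0 higher. The share called, 40%, was below the 44.3% over genes with 100 or more mean counts, of which 21.7% were lower. Nsd2, which makes dimethylated H3K36 (chromosome 5, 33820725 to 33897975), stood at -0.81 ± 0.16 (adjusted p = 3.78e-06) per the authors' deposited table. Ash1l, which makes the same mark and is counted among the trithorax genes, had -0.65 ± 0.15 (adjusted p = 0.000136) per the authors' deposited table. The other 3 lay close to 0: Nsd1 at 0.03 ± 0.20, Nsd3 at -0.07 ± 0.14, and Setd2, the enzyme of trimethylated H3K36, at 0.00 ± 0.12 according to the authors' deposited table. The 95% interval of Setd2, -0.23 to 0.23, is the narrowest of the 48. Dot1l, the H3K79 methyltransferase, was at -0.42 ± 0.19 without a call (adjusted p = 0.0749), per the authors' deposited table.

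Of 3 H4K20 methyltransferases 2 were higher and 0 lower. That is 66.7% of a group of only 3, and 22.6% of genes with 100 or more mean counts were higher. Kmt5a, also known as Set8 or PR-Set7, monomethylates H4K20 and is needed for chromosome compaction in mitosis (chromosome 5, 124439930 to 124462308). It had 1.16 ± 0.14 (adjusted p = 5.51e-14) per the authors' deposited table, a 2.24-fold higher level, and the second highest value of the 48. Kmt5c, which makes trimethylated H4K20 in heterochromatin (chromosome 7, 4740115 to 4747514), stood at 0.75 ± 0.23 (adjusted p = 0.00389) according to the authors' deposited table, and lost the call under the Benjamini-Yekutieli adjustment (adjusted p = 0.0533). Kmt5b, the paralog of Kmt5c, was at -0.13 ± 0.15 (adjusted p = 0.541), per the authors' deposited table. Of 22 cell cycle markers 9 were higher and 1 was lower, from E2f1 at -0.42 ± 0.15 to Rrm2, a subunit gene of ribonucleotide reductase, at 1.81 ± 0.24, per the authors' deposited table. The other 12 were not called, and the median was 0.23. The share called was 45.5%, with 40.9% higher and 4.55% lower. Where the mean count was 100 or more, 44.3% of genes were called, 22.6% higher and 21.7% lower. The part of these markers in the value of Kmt5a was not tested.

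The remaining 7 methyltransferases act mainly on other proteins or have no settled histone substrate, and 1 of them was called. This share, 14.3%, was below the 44.3% over genes with 100 or more mean counts. Setd3, now known as the histidine methyltransferase of actin, had -0.82 ± 0.14 (adjusted p = 2.72e-08) according to the authors' deposited table. Smyd3 was at -0.47 ± 0.20, just short of a call (adjusted p = 0.0514), and the values of Smyd2, Smyd5, Setd5, Setd7 and Kmt2e ranged from -0.09 to 0.32 without one, per the authors' deposited table.

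**Figure D2:**
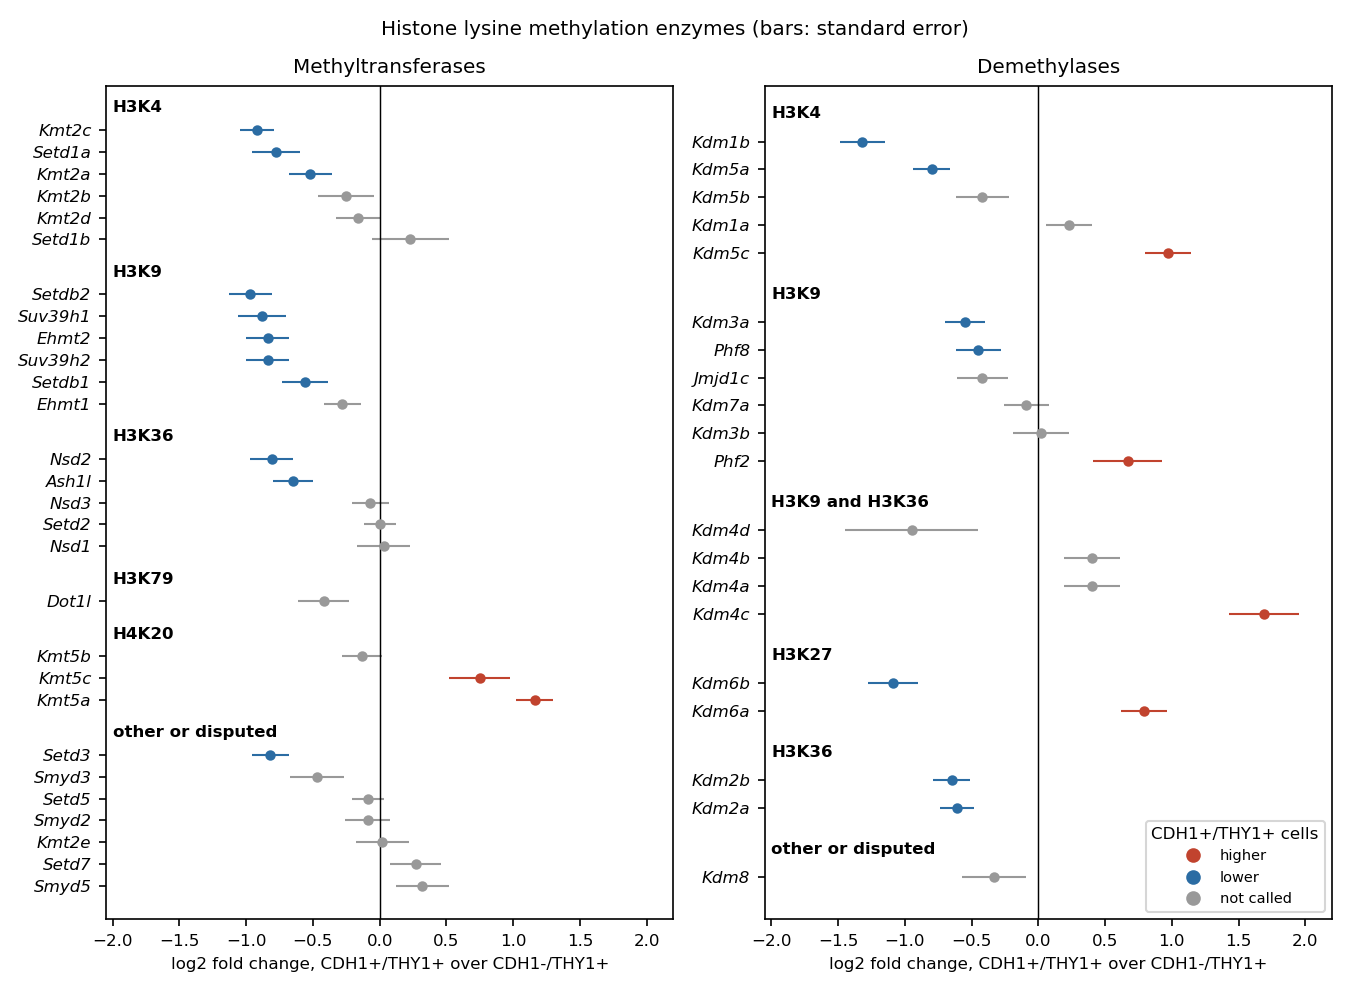
Values of the 48 enzymes as log2 of CDH1+/THY1+ over CDH1-/THY1+, with the standard error of the authors' test as bars, by class and main target lysine. Red points were called higher, blue points lower and grey points not called. Of the 6 H3K9 methyltransferases all lie left of 0, between -0.97 and -0.28, and the H4K20 enzymes Kmt5a and Kmt5c lie right of it, at 1.16 and 0.75.

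Demethylases had 7 lower and 4 higher of 20, which is 35% lower and 20% higher. Over genes with 100 or more mean counts these shares were 21.7% and 22.6%. Values of the demethylases spread more widely, from -1.32 to 1.69, than those of the methyltransferases, from -0.97 to 1.16. The lysine-specific demethylases use FAD as a cofactor and the other enzymes, with a Jumonji domain, iron and 2-oxoglutarate. The lowest value of all 48 was that of Kdm1b, or LSD2, an H3K4 demethylase known in mouse oocytes for allowing DNA methylation at imprinted genes (chromosome 13, 47043499 to 47085279). It had -1.32 ± 0.17 (adjusted p = 7.60e-14) per the authors' deposited table, a 2.5-fold lower level at a mean count of 2577. Kdm1a, or LSD1, the H3K4 demethylase of the CoREST repressor, was at 0.23 ± 0.17 (adjusted p = 0.297) according to the authors' deposited table and had the second highest level per length of the set, 749 counts per kb of exon. The 95% interval of Kdm1a ran from -0.10 to 0.57.

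The KDM5 enzymes, which remove methyl groups from trimethylated H3K4, went in different directions. Kdm5a had -0.80 ± 0.14 (adjusted p = 9.24e-08) per the authors' deposited table. Kdm5b had the highest mean count of the set, 9896, and a value of -0.42 ± 0.20 that was not called (adjusted p = 0.0861), per the authors' deposited table. The X-linked Kdm5c (152233020 to 152274535) rose by 0.97 ± 0.17 on the log2 scale (adjusted p = 7.19e-08) according to the authors' deposited table, a 1.96-fold higher level. The difference between these paralogs was not tested.

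Both enzymes grouped here as H3K27 demethylases, by their main target, were called, in opposite directions. Kdm6a, or UTX, a subunit of the KMT2C and KMT2D complexes (chromosome X, 18162575 to 18279936), rose by 0.79 ± 0.17 on the log2 scale (adjusted p = 3.44e-05) per the authors' deposited table. Kdm6b, or JMJD3, which is induced by many signals (chromosome 11, 69398508 to 69413675), fell by 1.09 ± 0.19 on the log2 scale (adjusted p = 1.49e-07) per the authors' deposited table, a 2.12-fold lower level at a mean count of 240. The H3K36 demethylases Kdm2a and Kdm2b, whose CXXC domains bind unmethylated CpG islands, were lower by like amounts. Kdm2a had -0.61 ± 0.13 (adjusted p = 3.37e-05) and Kdm2b, which shares exon bases with Rnf34 on the other strand, -0.65 ± 0.14 (adjusted p = 3.43e-05) according to the authors' deposited table.

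The highest value of all 48 belonged to Kdm4c, a demethylase of trimethylated H3K9 and H3K36 (chromosome 4, 74242497 to 74405860). It had 1.69 ± 0.26 (adjusted p = 1.35e-09) per the authors' deposited table, a 3.22-fold higher level. Its standard error was larger than those of 92.5% of the 200 genes nearest in mean count, and it was the 1 enzyme above the 90th percentile in this respect, which the alternative without such genes leaves out. Kdm4a and Kdm4b were both at 0.40 ± 0.21 and were not called (adjusted p = 0.121 and 0.124) per the authors' deposited table. Kdm4d, known in mouse for its expression in testis, had a mean count of 18.4 and a value of -0.95 ± 0.50 that was not called (adjusted p = 0.128), according to the authors' deposited table.

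Among the 6 H3K9 demethylases other than the KDM4 enzymes, 2 were lower and 1 was higher. The share called, 50%, was near the 44.3% over genes with 100 or more mean counts. Kdm3a, which in mouse is needed for spermiogenesis, fell by 0.55 ± 0.15 on the log2 scale (adjusted p = 0.0011) per the authors' deposited table. Its change was under 1.5-fold, so the call was lost where that minimum was set. The X-linked PHD finger gene Phf8 fell by 0.45 ± 0.17 on the log2 scale (adjusted p = 0.026) and its relative Phf2 rose by 0.67 ± 0.26 on the log2 scale (adjusted p = 0.0323) per the authors' deposited table. Both calls were lost at an adjusted p under 0.01 and under the Benjamini-Yekutieli adjustment (adjusted p = 0.342 and 0.422). That of Phf8 was also lost with a minimum change of 1.5-fold. Jmjd1c at -0.42 ± 0.19, Kdm7a at -0.09 ± 0.17 and Kdm3b at 0.02 ± 0.21 were not called, nor was Kdm8, a JmjC protein with a disputed histone substrate, at -0.33 ± 0.24, according to the authors' deposited table.

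**Figure D3:**
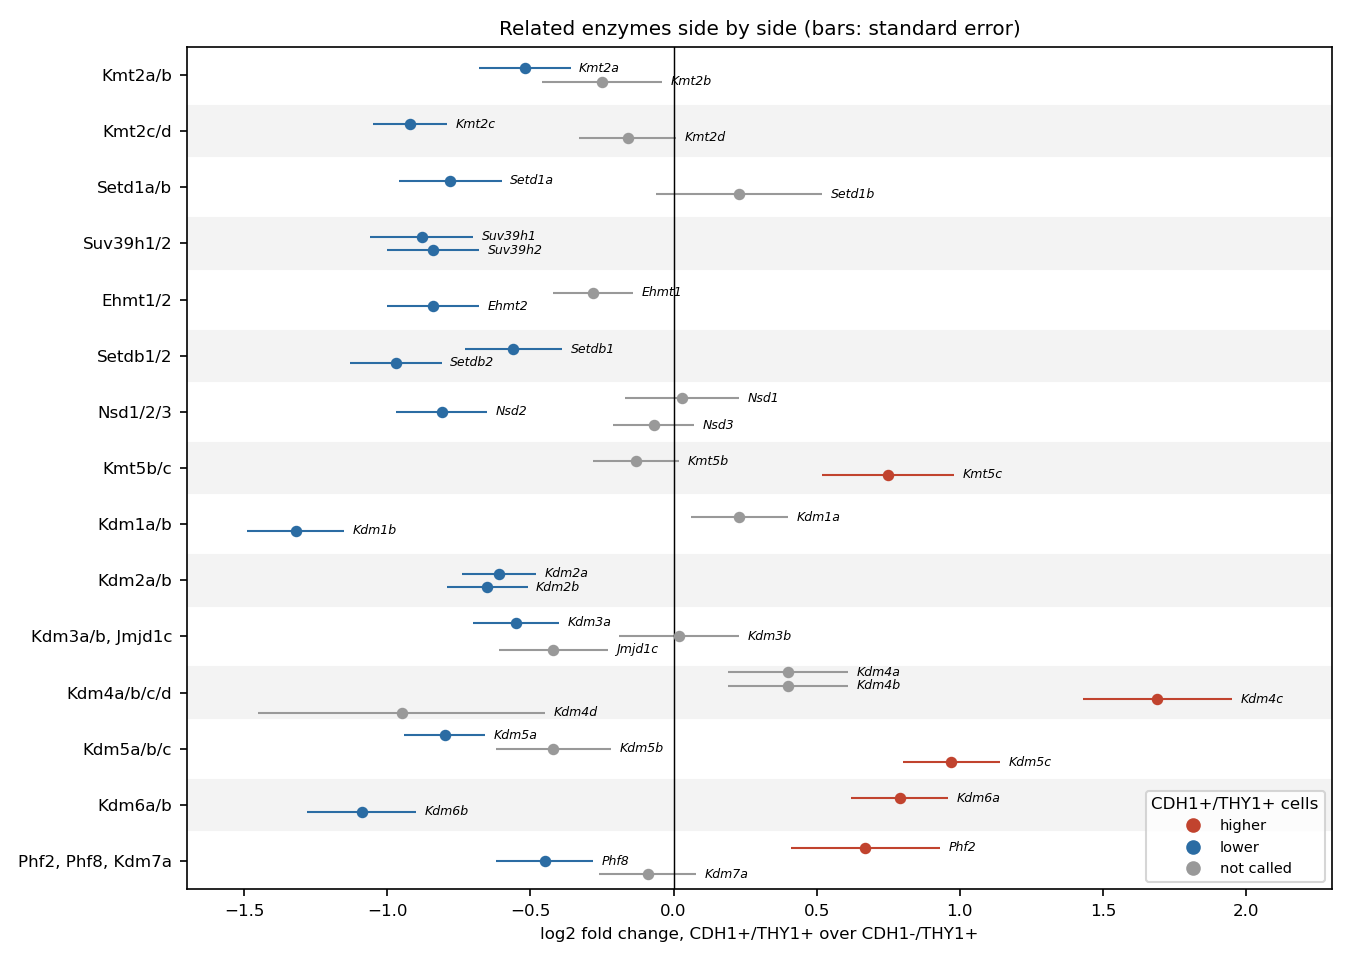
Log2 of CDH1+/THY1+ over CDH1-/THY1+ for related enzymes set side by side, 1 family in each band, with the standard error of the authors' test as bars. Suv39h1 and Suv39h2 at -0.88 and -0.84, and Kdm2a and Kdm2b at -0.61 and -0.65, lie together, while Kdm6a at 0.79 and Kdm6b at -1.09, and Kdm5c at 0.97 and Kdm5a at -0.80, lie on opposite sides of 0.

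All 4 X-linked enzymes were called, Kdm5c and Kdm6a higher and Suv39h1 and Phf8 lower, while 46.9% of 735 X-linked genes were called. The Y-linked relatives of the first pair, looked up after the values of the X-linked genes were seen, were Kdm5d at -0.35 ± 0.36 (adjusted p = 0.485) and Uty at 0.03 ± 0.14 (adjusted p = 0.908) per the authors' deposited table. Neither was called. Reads of such near relatives could have been split between the copies in ways that the values do not show.

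Levels per length were compared as the mean normalised count per kb of exon. The median was 153 for the enzymes, against 31.6 over all genes, and Ehmt2 at 1130, Kdm1a at 749, Setd3 at 649, Kdm5b at 598 and Setdb1 at 476 counts per kb led the order. At its other end stood Setd1b and Kdm4d, at 4.97 and 6.43 counts per kb, and Kmt2d and Kdm6b, at 34.1 and 34.5. Since no spread over samples is known, neighbours in this order cannot be told apart by a test. Of the 5 most abundant enzymes per length 3 were lower in CDH1+/THY1+ cells and 0 were higher. Of all 48 enzymes 37.5% were lower and 12.5% higher. Where the mean count was 100 or more, 21.7% of genes were lower and 22.6% higher. Other genes of like level per length were not compared, and a link of level and direction was not tested.

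**Figure D4:**
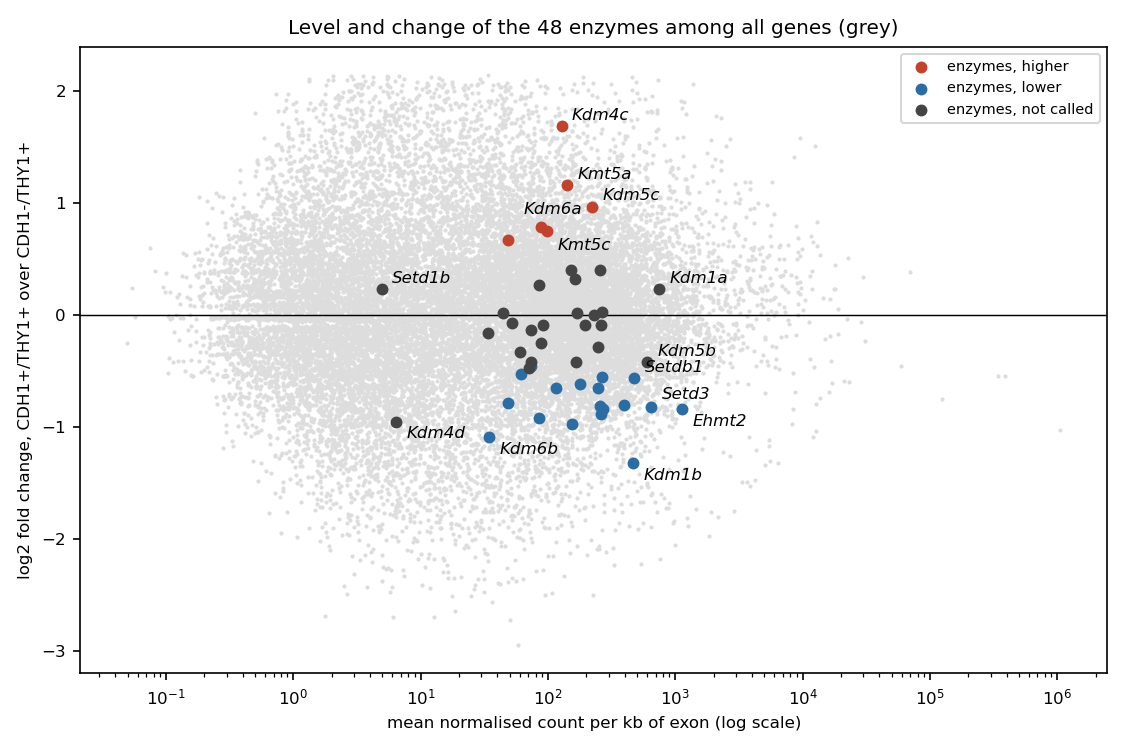
Mean normalised count per kb of exon over all 6 libraries (log scale) against log2 of CDH1+/THY1+ over CDH1-/THY1+, for all genes (light grey) and the 48 enzymes (red higher, blue lower, dark grey not called). Called enzymes lie between 34.5 counts per kb (Kdm6b) and 1130 (Ehmt2), and Kdm4c at 1.69 and Kdm1b at -1.32 are the outermost enzymes.

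The enzymes work with partner proteins, and these did not share 1 direction. Of 11 tested partners of the COMPASS complexes, which carry the H3K4 methyltransferases, 2 were higher and 3 lower, with a median of -0.17. This is 45.5% called, against 33.5% of all genes and 44.3% of those with a mean count of at least 100. Cxxc1, which brings SET1 complexes to CpG islands, stood at -1.16 ± 0.13 (adjusted p = 3.18e-17) and the coactivator gene Ncoa6 at -0.81 ± 0.18 per the authors' deposited table. The core subunit gene Dpy30 had 0.66 ± 0.23 and Wdr82, a SET1 complex subunit, 0.46 ± 0.15, according to the authors' deposited table. Of 11 LSD1 and CoREST partners 4 were higher and 6 lower, which is 90.9% called. The scaffold gene Rcor1 was at 1.08 ± 0.19 (adjusted p = 2.60e-07) and Rcor3 at 0.98 ± 0.31 per the authors' deposited table. The zinc finger gene Zmym3 had -1.54 ± 0.26 (adjusted p = 4.89e-08) and Gse1 -0.93 ± 0.19, per the authors' deposited table.

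Partners and readers of H3K9 methylation had 4 higher and 4 lower of 15, with a median of -0.11, against -0.84 for the methyltransferases of this lysine. In all 53.3% of these partners and readers were called, against 44.3% over genes with 100 or more mean counts. The genes of the HP1 proteins that bind the mark rose in part: Cbx1 had 1.31 ± 0.20 (adjusted p = 1.86e-09) and Cbx5 1.12 ± 0.16 (adjusted p = 3.26e-10) according to the authors' deposited table, while Cbx3 was at -0.16 ± 0.16 without a call. Zfp644, a zinc finger partner of the Ehmt1 and Ehmt2 complex, stood at -1.01 ± 0.14 (adjusted p = 7.85e-11) and Pphln1, of the HUSH silencing complex, at -0.59 ± 0.15 per the authors' deposited table. Cbx3 was chosen after its value was seen.

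H3K36 readers had 3 higher and 2 lower of 10. This is 50% called, against 33.5% of all genes and 44.3% of those with a mean count of at least 100. Hdgfl2 was at 1.08 ± 0.18 and Phf19, a PRC2 accessory subunit gene, at 0.98 ± 0.25, while the DNA methyltransferase gene Dnmt3a had -0.65 ± 0.14 and Brpf1 -0.48 ± 0.16 per the authors' deposited table. Of 9 DOT1L partners 1 was higher and 2 were lower, which is 33.3% called. Aff4, of the super elongation complex, had 1.07 ± 0.17 per the authors' deposited table. Aff3 stood at -1.58 ± 0.15 and Ell at -0.42 ± 0.16 according to the authors' deposited table. Of 8 H4K20 readers 1 was higher and 2 were lower, which is 37.5% called. L3mbtl3 had 0.93 ± 0.19 per the authors' deposited table. The DNA repair gene Trp53bp1 stood at -0.85 ± 0.13 and Phf20 at -0.71 ± 0.14 per the authors' deposited table.

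Other enzymes of histone lysine methylation, outside the 48, had 3 higher and 8 lower of 18 tested, with a median of -0.35. This is 61.1% called, against 33.5% of all genes and 44.3% of those with a mean count of at least 100. Ezh2, the main H3K27 methyltransferase of PRC2, was at 0.84 ± 0.23 (adjusted p = 0.00125), and Mecom, a PR domain gene, at 0.78 ± 0.32 (adjusted p = 0.0426) per the authors' deposited table. The PR domain gene Prdm16 stood at -1.38 ± 0.18 (adjusted p = 2.46e-13), and Riox2, a JmjC hydroxylase gene, at -0.82 ± 0.16 according to the authors' deposited table.

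Shared bases limit some of these values. In GENCODE M21 20 of the 48 enzymes share exon bases with another gene, and it is not known whether the counting used strand. Of the genes that share exon bases with an enzyme on the opposite strand, 3 were called higher and 2 lower. Suv39h2, which was lower, shares 8.1% of its exon bases with Dclre1c, which was higher, at 0.60 ± 0.24 (mean count 117), according to the authors' deposited table. Kdm2b, which was lower, shares 5.77% with Rnf34, which was lower too, at -0.34 ± 0.13 (adjusted p = 0.0333, mean count 1182), according to the authors' deposited table. How reads in shared bases were counted could therefore affect the value of Kdm2b if strand was not used, which was not tested. Kdm5a shares 1.77% with Ccdc77, at 1.14 ± 0.22, and Setdb1 1.09% with Cers2, at 0.94 ± 0.15, according to the authors' deposited table. Kmt2e, which was not called, shares 9.31% with Srpk2, at -0.58 ± 0.15, according to the authors' deposited table. Kdm1b shares 9.19% with Dek, which was not called (0.17 ± 0.16), according to the authors' deposited table. The antisense model Gm14820, without a value here, covers 14.6% of the exon bases of Suv39h1. Smyd2 and Kdm3b, neither of them called, share more with genes of low count on the opposite strand. Smyd2 shares 30% with Gm37422 (mean count 2.63) and Kdm3b 24.6% with Gm26538 (mean count 16.7).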

How the data were processed

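RNA levels of 3 CDH1+/THY1+ and 3 CDH1-/THY1+ samples of mouse germline stem cells were used as 1 table of the authors' comparison. Per the labels' protocols, libraries were strand-specific, from RNA depleted of ribosomal RNA. The submitters' processing notes name R 3.3.1 with DESeq2 1.12.3, featureCounts, Subread 1.5.0-p3, TopHat2 2.1.1, Trimmomatic 0.32 and the build GRCm38.p4. How the model was set up, which annotation was counted and whether strand was used is not given in the sources used here. The authors' mean normalised count is a signal averaged over all 6 libraries. The deposited fold change and standard error are on the log2 scale, the deposited Wald statistic is a score, and the p-value and adjusted p-value are those of the authors. No standard error of the table exceeds 0.639, as would be so if fold changes had been shrunken towards 0, which no source used here states; changes of genes with few reads may then be understated.

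Symbols, positions and exon lengths came from GENCODE M21 (GRCm38), by Ensembl identifier without version. The adjusted p-values came from 19743 tests, of which 532, all called, were not analysed here. With them 35.3% of genes were called, against 33.5% of the rows. All 48 enzymes have rows. Members, their grouping by target and the 16 lists were chosen with earlier results of these data known. Named were all members, per partner list up to 2 called genes in each direction, and per marker list the lowest and highest called gene. Adjustments were recomputed in Python 3.11.15 and tested on simulated data. Each standard error was set beside those of the 200 genes nearest in mean count. Reads could not be refitted, nor libraries left out, because the table has no column per library.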

Additional observations from a re-analysis of the deposited data

How the results depend on the processing

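No paired analysis was possible because the table holds 1 value per comparison and no column per library. The count of called enzymes, 24, ranged from 19 to 25 over the alternatives, and the median of the set from -0.34 to -0.31. Under the Benjamini-Yekutieli adjustment, which called 16.3% of all genes, 19 enzymes remained, 4 higher and 15 lower, with 1 methyltransferase higher in place of 2, 1 H3K9 demethylase in place of 3, 1 H4K20 methyltransferase in place of 2, and 37 of 121 genes of the partner and comparison lists in place of 56 of 120. The H3K9 demethylase count, which leaves out the KDM4 enzymes, was also 1 at an adjusted p under 0.01 and with a change of at least 1.5-fold. Without genes of large standard error the group of 4 KDM4 enzymes had 0 calls, since Kdm4c was left out. Both an adjustment over genes with 100 or more mean counts and centring of the fold changes, added a call of Smyd3 (adjusted p = 0.0409 and 0.0383), which made 2 calls among the 7 methyltransferases of other or disputed targets. Of the 24 called enzymes 18 kept their call under every alternative that included them, 14 lower and 4 higher, and none changed sign. The cause of the lost calls, other than the stricter thresholds, was not tested.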

Other observations

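Enzymes of other histone modifications showed values in both directions. Histone acetyltransferases had 53.3% called, histone deacetylases 23.5% and protein arginine methyltransferases 12.5%. Among all genes 33.5% were called, and 44.3% among those with a mean count of at least 100. Of 15 histone acetyltransferases 3 were higher and 5 lower, with a median of -0.23. Ncoa1, a nuclear receptor coactivator, had 1.30 ± 0.20 and Kat2b, or PCAF, 1.15 ± 0.17 (adjusted p = 1.44e-10), while the paralog of Kat2b, Kat2a or GCN5, stood at -0.38 ± 0.15 (adjusted p = 0.0379) per the authors' deposited table. Kat6b had 1.11 ± 0.23 and its paralog Kat6a -0.58 ± 0.15, and Crebbp, the CBP coactivator, was at -0.98 ± 0.16 (adjusted p = 1.04e-08) and Taf1 at -0.86 ± 0.16 per the authors' deposited table. The difference between these paralogs was not tested. Kat2a, Kat6b and Kat6a were chosen after their values were seen.

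Of 17 histone deacetylases 2 were higher and 2 lower, with a median of 0.01. Hdac1 was at 0.61 ± 0.19 (adjusted p = 0.00501), and its close relative Hdac2, which shares its complexes, at -0.40 ± 0.14 (adjusted p = 0.0126) according to the authors' deposited table. Sirt2 had 0.54 ± 0.22 and Hdac6, the tubulin deacetylase, -0.93 ± 0.21, per the authors' deposited table. Of 8 protein arginine methyltransferases 1 was higher and 0 were lower: Carm1, which methylates histone H3 and coactivators, at 0.62 ± 0.17 (adjusted p = 0.00163) per the authors' deposited table.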
